A study of Rattus norvegicus with 11 samples.

Results

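The genes described here are 10 chemokine ligands expressed by rat blood leukocytes, namely Cxcl1, Cxcl2, Cxcl3, Cxcl16, Ccl2, Ccl3, Ccl4, Ccl5, Ccl6 and Ccl17. They were chosen by symbol, each stood on 1 row, and together they were 10 of the 32623 genes in the table. White blood cells (WBCs) of male Wistar rats, 7 weeks old at the start of the experiment, were profiled by poly(A) RNA-sequencing in 11 samples. Collagen-induced arthritis (CIA), a model in which type II collagen in incomplete Freund's adjuvant (IFA) provokes joint inflammation, was raised in 4 rats, which were boosted on day 7. Each CIA rat was bled when it was Nampt++, near day 8, and again when it was Nampt+, near day 14. The controls were 3 normal healthy rats, whose day of bleeding is not given in the sources used here. The 2 statuses came from a PCR assay of Nampt, the rate-limiting enzyme of NAD salvage. Every Nampt++ sample was taken near day 8 and every Nampt+ sample near day 14, so status and time after the boost cannot be told apart. All samples were WBCs left after red cell lysis, with no sorting of cell types.

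Chemokines are small secreted proteins that draw leukocytes along a gradient by way of G protein-coupled receptors. The CXC ligands Cxcl1, Cxcl2 and Cxcl3 attract neutrophils through Cxcr2, and CC ligands mostly attract monocytes and lymphocytes. Many of them are rapidly induced by NF-kappa B in stimulated myeloid cells and are abundant in inflamed joints.

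Cxcl1, Cxcl2 and Cxcl3 lay together on chromosome 14 in the authors' coordinates, whose genome build is not given in the sources used here. Cxcl2 was at chr14:18731378-18733391, Cxcl1 at chr14:18743685-18745457 and Cxcl3 at chr14:18820168-18839595, all protein-coding and on the minus strand. A second cluster on chromosome 10 held Ccl5 at chr10:70739800-70744315, Ccl6 at chr10:70797124-70802782 and Ccl3 at chr10:70869513-70871066 on the minus strand, and Ccl4 at chr10:70884531-70886355 on the plus strand. Ccl2 at chr10:69412017-69413870 and Cxcl16 at chr10:57060007-57064600 were elsewhere on that chromosome, and Ccl17 was at chr19:10619220-10620671.

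Promoter sequences were taken from a table made from RefSeq for the GRCr8 assembly, to which 5 of the 10 ligands were matched (Cxcl1, Cxcl2, Cxcl16, Ccl6 and Ccl17). The 250 bases before the start site are shown for the neighbours Cxcl1 and Cxcl2, and for Cxcl16, a ligand called between the statuses with the rat as a replicate block. Each is written 5′ to 3′ in the direction of transcription, and capitals mark matches to the kappa B motif, the element that NF-kappa B dimers bind. On the minus strand of GRCr8, the windows were chr14:17479322-17479571 for Cxcl1, chr14:17467256-17467505 for Cxcl2 and chr10:55669951-55670200 for Cxcl16.
Cxcl1: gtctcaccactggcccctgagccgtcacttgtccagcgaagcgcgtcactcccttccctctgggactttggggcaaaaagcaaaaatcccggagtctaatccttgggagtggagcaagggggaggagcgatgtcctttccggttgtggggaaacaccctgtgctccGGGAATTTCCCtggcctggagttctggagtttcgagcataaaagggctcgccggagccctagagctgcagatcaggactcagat
Cxcl2: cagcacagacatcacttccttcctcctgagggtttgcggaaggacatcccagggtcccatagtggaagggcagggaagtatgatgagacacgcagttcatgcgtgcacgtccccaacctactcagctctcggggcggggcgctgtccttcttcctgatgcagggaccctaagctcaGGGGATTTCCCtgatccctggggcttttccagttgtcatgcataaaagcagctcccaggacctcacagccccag
Cxcl16: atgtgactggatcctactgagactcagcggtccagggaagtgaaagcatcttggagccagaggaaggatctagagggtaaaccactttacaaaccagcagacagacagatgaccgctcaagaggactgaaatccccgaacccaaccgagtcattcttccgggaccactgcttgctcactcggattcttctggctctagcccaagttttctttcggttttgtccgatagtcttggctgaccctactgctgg
The Cxcl1 window held 2 overlapping matches on opposite strands, between 84 and 74 bases before the start. In the Cxcl2 window 3 overlapping matches stood between 74 and 64 bases before the start. The windows of Cxcl16, Ccl6 and Ccl17 held no match to these letters. Over all 33469 promoters in the table, searched on both strands, 2117 (6.33%) held the motif, and a match describes the letters only.

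Total counts per sample were between 65340027 and 85819418, and haemoglobin genes took 6.84% to 42.8% of them. The 10 ligands took 0.104% to 0.479% of all counts. Markers of neutrophils, monocytes, T, NK and B cells were all present, and none of the listed markers found in the table was at 0 in all samples. Levels are given in FPKM, fragments corrected for gene length and sample depth. The Nampt++ sample of rat 1 stood apart. Its summed FPKM of 10 neutrophil markers was 40115, against 2204 to 15471 in the other samples, and results that rest on it are given with and without it. Most of that sum was S100a9 (25724 FPKM) and S100a8 (12479). Csf3r was also highest in that sample, at 1072 FPKM. Fcnb (276 FPKM) was higher in the Nampt++ and Nampt+ samples of rat 4 (350 and 290). In bulk samples, fewer cells of a type and less RNA per cell cannot be told apart. Nampt itself stood at 30.9 ± 15.3 FPKM in Nampt++ samples, 22.5 ± 11.8 in Nampt+ samples (SD, n = 4 each) and 22.2 ± 9.80 in controls (SD, n = 3). Within rats, Nampt differed between Nampt+ and Nampt++ samples by -1.93, 0.46, -0.38 and 0.26 in log2(FPKM + 1) for rats 1 to 4, so in rats 2 and 4 it was higher in the library labelled Nampt+.

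Blood leukocytes expressed the ligands over a wide range of levels. By the median FPKM of 11 samples, the order was Ccl3 (806), Ccl6 (593), Ccl5 (448), Cxcl2 (417), Ccl4 (165), Ccl2 (70.5), Cxcl1 (20.4), Cxcl16 (10.1), Cxcl3 (7.24) and Ccl17 (1.43). The leading 4 were not set apart by their spread, since Ccl3 was above Ccl6 in 8 of 11 samples, and Ccl6 above Ccl5 and Ccl5 above Cxcl2 in 6 each. Below them the steps were clearer. Cxcl2 was above Ccl4 in 11 of 11 samples, Ccl4 above Ccl2 in 10, Ccl2 above Cxcl1 in 11 and Cxcl3 above Ccl17 in 11. Cxcl1 exceeded Cxcl16 in 7 and Cxcl16 exceeded Cxcl3 in 8. Cxcl2, Ccl3 and Ccl6 together gave 66.5% to 95.6% of all ligand counts, with the upper end in the Nampt++ sample of rat 1.

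**Figure D1:**
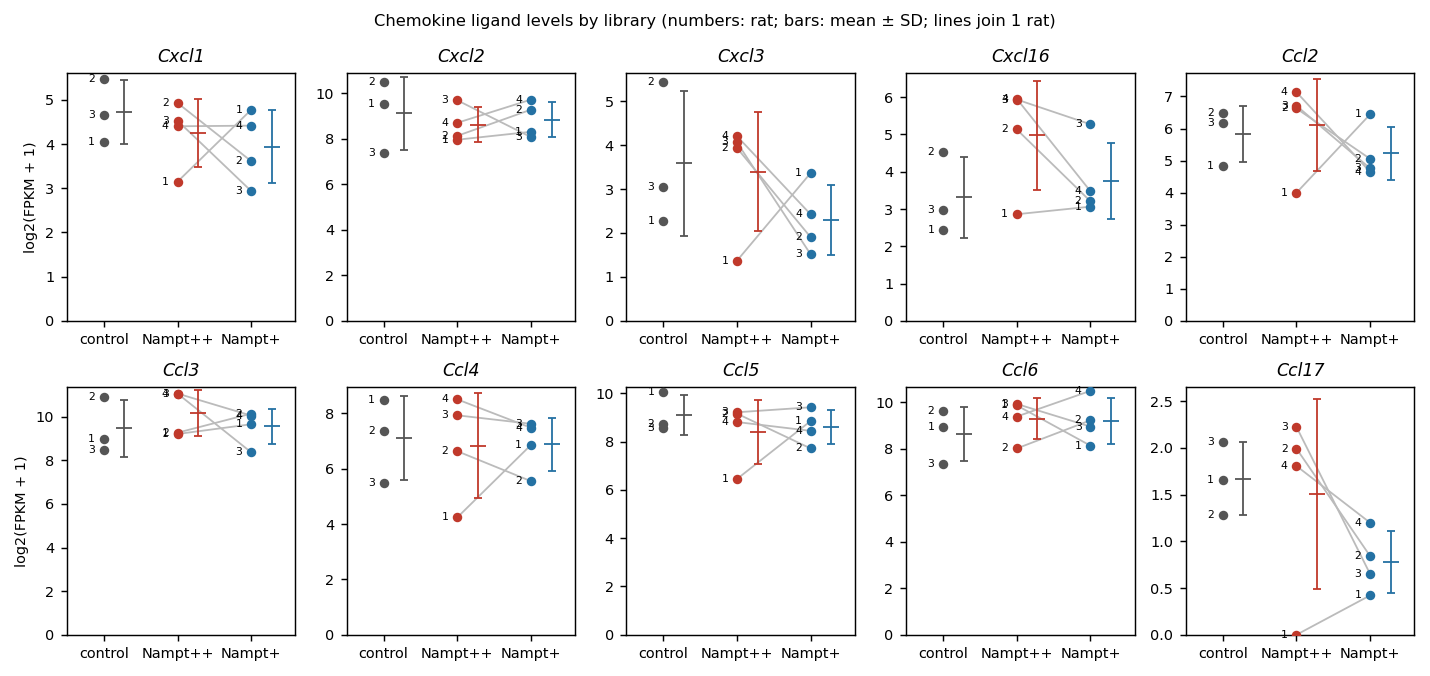
Level of each ligand as log2(FPKM + 1) in the 11 libraries, with points numbered by rat, bars for the mean ± SD of each group, and lines joining the Nampt++ and Nampt+ samples of 1 CIA rat (controls are other rats). Cxcl3, Ccl2 and Ccl17 were lower at Nampt+ in rats 2 to 4 and higher in rat 1, whose Nampt++ sample had the lowest level of these 3 ligands.

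To be called, a gene needed group mean FPKMs that differed by more than 2-fold (a ratio above 2 or below 0.5) together with an unadjusted p below 0.05 in edgeR's quasi-likelihood test. The log2 fold changes and SEs below are from this fit, and the p-values of single ligands are raw and two-sided, from exact permutation of log2(FPKM + 1), where 0.0286 is the smallest possible. Between Nampt+ and Nampt++ samples, 0 of the 10 ligands were called, against 0.642% of the 11219 genes tested, and none had an unadjusted p below 0.05. DESeq2 called 2 ligands (Cxcl3 and Cxcl16) and 0.927% of genes, and limma 0 ligands and 0.865% of genes. None of the 10 had groups that did not overlap, against 0.41% of genes. Between Nampt++ samples and controls, 0 were called (0.686% of genes) and 0 did not overlap (1.1%), while DESeq2 and limma each called 1 (Cxcl16), with 1.08% and 1.37% of genes called. Between Nampt+ samples and controls, 1 was called (Ccl17, lower, against 0.497% of 11269 genes), and it alone did not overlap (0.444%). No adjusted p of a ligand passed: the Benjamini-Hochberg adjusted p from edgeR was 0.999561 or more for all 10 in all 3 comparisons, which share samples and are not independent. Over all genes tested with edgeR, the smallest adjusted p was 0.999561, 0.999921 and 0.202535 in these comparisons, in the order above. The other genes named below as called in a comparison of all samples thus did not pass adjustment either.

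The picture between the 2 statuses depended on the Nampt++ sample of rat 1. Without it, 4 ligands were called lower at Nampt+ (Cxcl3, Cxcl16, Ccl2 and Ccl17), against 0.92% of the genes then tested in either direction, and 3 of these (Cxcl3, Ccl2 and Ccl17) had groups that did not overlap, against 1.02%. Without that sample, Nampt itself stood at 25.6 ± 13.7 FPKM in Nampt++ samples (SD, n = 3), beside 22.5 ± 11.8 at Nampt+ (SD, n = 4). Within rats 2 to 4, Nampt was on average 0.11 ± 0.44 higher at Nampt+ in log2(FPKM + 1) (SD, n = 3). The 2 labels thus differed little in Nampt where these 4 ligands were called. Leaving out both samples of rat 1 also gave 4 called ligands, an alternative added after seeing the data, in which 1.29% of genes were called. Leaving out any other single sample gave 0 or 1: Cxcl3 without the Nampt+ sample of rat 1 (0.751% of genes called), and Cxcl16 without the Nampt+ sample of rat 3 (0.726%). With the rat as a replicate block in edgeR and all samples kept, Cxcl16 alone was called lower (0.499% of genes called in that fit). In limma with the same block, an alternative that was not planned, Cxcl16 (-1.22) and Ccl17 (-0.73) were called lower. That fit called 129 of 11219 genes.

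Cxcl16 was higher in 3 of 4 Nampt++ samples than in the 3 controls and 3 of 4 Nampt+ samples. It encodes a membrane-bound chemokine that is cut from the surface by Adam10 and Adam17 and that attracts T and NKT cells through Cxcr6. The Nampt++ samples of rats 1 to 4 had 6.26, 34.2, 60.3 and 61.1 FPKM, the Nampt+ samples 7.36, 8.24, 37.7 and 10.1, and the controls 4.38, 22.2 and 6.80. High values thus came from the Nampt++ samples of rats 2, 3 and 4 and from the Nampt+ sample of rat 3, while the Nampt++ sample of rat 1 was among the controls. The fitted log2 fold change of Nampt+ against Nampt++ was -1.37 (SE 0.70). With the rat as a replicate block it was -1.19 (SE 0.47). Without the Nampt++ sample of rat 1 it was -1.74 (SE 0.50), and without the Nampt+ sample of rat 3 it was -2.0, and all 3 of these fits called it. Over all samples the exact permutation test gave p = 0.257.

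Against controls, the mean of Cxcl16 in Nampt++ samples was 40.5 ± 26.0 FPKM (SD, n = 4) beside 11.1 ± 9.69 (SD, n = 3). The log2 fold change was 1.64 (SE 0.91), and the exact permutation test gave p = 0.171. Once the Nampt++ sample of rat 1 was left out, the change rose to 2.0 (SE 0.73), and Cxcl16 was then called (0.767% of genes called). The 3 remaining samples then lay above all 3 controls. Cxcl16 and Ccl2 were the 2 ligands without overlap in that comparison, against 2.14% of genes. Leaving out control 2 instead gave 3.03, with Ccl3 called beside it (1.74), in a fit that called 4.09% of genes. Nampt+ samples did not pass against controls (0.26, SE 0.77, exact permutation p = 0.571), except without control 2 (1.65, called, as were 1.2% of genes in that fit). The sheddases did not pass in any comparison, and Adam17 stood at 38.4 ± 16.1 FPKM in Nampt++ samples, 24.1 ± 3.47 in Nampt+ samples (SD, n = 4 each) and 21.9 ± 8.19 in controls (SD, n = 3). For Adam10 these means were 12.9, 12.5 and 13.2 FPKM. The end of Cxcl16 overlapped Zmynd15 on the other strand by 119 bases, where Zmynd15 had 0.127 to 3.12 FPKM.

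Among the neutrophil-attracting ligands, Cxcl2 was the most abundant and Cxcl3 the most variable. All 3 encode ligands of Cxcr2. For Cxcl1, Nampt++ samples of rats 1 to 4 had 7.87, 29.5, 22.1 and 20.2 FPKM, Nampt+ samples 26.5, 11.2, 6.66 and 20.4, and controls 15.5, 43.6 and 24.2. The groups overlapped widely and the highest value was in control 2. The fitted changes were -0.26 (SE 0.52) for Nampt+ against Nampt++, -0.57 (SE 0.59) for Nampt++ against controls and -0.84 (SE 0.58) for Nampt+ against controls, none past the test. Exact permutation gave p = 0.629, 0.457 and 0.286 in the same order.

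The levels of Cxcl2 were 249, 279.7, 829 and 417 FPKM in Nampt++ samples, 317, 623, 269 and 846 in Nampt+ samples, and 735, 1429 and 164 in controls. Controls held both the highest and the lowest value. Cxcl2 was the one CXC ligand whose fitted change from Nampt++ to Nampt+ was upward, at 0.41 (SE 0.57), and it was -1.03 (SE 0.79) for Nampt++ against controls. Without control 3 the latter became -1.55 and was called, as were 1.27% of genes in that fit. By exact permutation, p was 0.743 between statuses, 0.571 for Nampt++ against controls and 0.771 for Nampt+ against controls.

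Cxcl3 had 1.58, 14.3, 15.7 and 17.4 FPKM for rats 1 to 4 at Nampt++, 9.31, 2.74, 1.85 and 4.36 at Nampt+, and 3.83, 42.2 and 7.24 in controls. The Nampt++ samples of rats 2 to 4 lay close together and above all Nampt+ samples, and control 2 was higher than every sample of a CIA rat. The fitted change of Nampt+ against Nampt++ was -1.37 (SE 0.72), and -1.74 (SE 0.49) without the Nampt++ sample of rat 1. Against controls, Nampt+ samples gave -2.18 (SE 0.95), a value carried by control 2, since it was -0.02 without that sample. It was called when the Nampt+ sample of rat 1 (-2.68), control 1 (-2.68) or control 3 (-2.62) was left out, and with upper quartile scaling (-2.10), without a filter on low values (-2.18), without haemoglobin genes (-2.18) or with all 3 groups in one fit (-2.17). The share of genes called in these 7 fits was, in the same order, 0.87%, 0.587%, 1%, 0.532%, 1.35%, 0.515% and 0.497%. With limma on log2(FPKM + 1) Cxcl3 was called as well (-1.28), as were 85 of 11269 genes. The Nampt++ samples gave -0.80 (SE 1.03). Exact permutation p-values were 0.229 between statuses, 0.886 at Nampt++ and 0.229 at Nampt+ against controls.

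Ccl2, the main attractant of inflammatory monocytes, followed the pattern of Cxcl3 within rats. It had 15.0, 97.7, 104 and 139.5 FPKM in Nampt++ samples, 86.1, 32.2, 26.0 and 24.0 in Nampt+ samples, and 27.5, 88.4 and 70.5 in controls. Rat 1 had its low value at Nampt++ and its high value at Nampt+, the reverse of rats 2, 3 and 4. The fitted change of Nampt+ against Nampt++ was -0.97 (SE 0.67), and -1.32 (SE 0.48) without the Nampt++ sample of rat 1. Neither status passed against controls, at 0.43 (SE 0.72) for Nampt++ and -0.55 (SE 0.61) for Nampt+. The exact permutation test gave p = 0.371 between statuses, and 0.714 and 0.343 against controls.

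Ccl3, Ccl4 and Ccl5 are inflammatory CC ligands that share receptors on monocytes, T cells and NK cells. Ccl3 was the most abundant ligand, with 591, 616, 2140.0 and 2141 FPKM in Nampt++ samples, 806, 1131, 329 and 1062 in Nampt+ samples, and 509, 1949 and 355 in controls. Its highest values were in the Nampt++ samples of rats 3 and 4 and in control 2. The fitted change was -0.43 (SE 0.63) for Nampt+ against Nampt++, 0.27 (SE 0.81) for Nampt++ against controls and -0.17 (SE 0.84) for Nampt+ against controls. In the exact permutation test p was 0.371, 0.429 and 0.914 in that order. The values of Ccl3 are uncertain, because 779 of its 1554 bases overlap AC114233 (ENSRNOG00000051046) on the other strand, which had 43.5 to 684 FPKM, and whether counting used strand is not given in the sources used here.

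Ccl4 spanned 17.9, 98.5, 244 and 364 FPKM in Nampt++ samples, 115, 46.0, 197 and 178 in Nampt+ samples, and 354, 165 and 43.4 in controls. Low and high values stood side by side in every group, and the groups overlapped. No comparison passed, with -0.44 (SE 0.69), -0.22 (SE 0.96) and -0.67 (SE 0.64) for Nampt+ against Nampt++, Nampt++ against controls and Nampt+ against controls. Exact permutation p-values were 1, 0.83 and 0.857.

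Ccl5, a product of cytotoxic lymphocytes and platelets, had 86.5, 570.1, 593 and 448 FPKM in Nampt++ samples, 462, 209, 685 and 347 in Nampt+ samples, and 1076, 418 and 373 in controls. Apart from the low Nampt++ sample of rat 1, the groups covered much the same range. Its fitted change between statuses was -0.04 (SE 0.54). Against controls it was -0.56 (SE 0.69) at Nampt++ and -0.61 (SE 0.43) at Nampt+. Exact permutation gave p = 0.83 between statuses, and 0.571 and 0.429 against controls.

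Ccl6 is a CC ligand of rodents made by myeloid cells. It had 926, 256, 967 and 664 FPKM in Nampt++ samples, 278, 593, 492 and 1428 in Nampt+ samples, and 489, 780.1 and 160.2 in controls. It was the only ligand that was lower at Nampt+ in rat 1, with a difference of -1.73 in log2(FPKM + 1), and it was also lower at Nampt+ in rat 3 and higher in rats 2 and 4. The fitted changes were 0.12 (SE 0.54) between statuses, 0.33 (SE 0.67) for Nampt++ against controls and 0.43 (SE 0.75) for Nampt+ against controls, none past the test. The exact permutation p was 0.914, 0.457 and 0.457.

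Ccl17, which attracts T cells bearing Ccr4 and is known as a product of dendritic cells, was the least abundant ligand. Its counts were 0, 71, 93 and 49 in Nampt++ samples, 7, 17, 14 and 28 in Nampt+ samples, and 46, 36 and 77 in controls. In FPKM these were 0, 2.98, 3.67 and 2.5, then 0.339, 0.792, 0.567 and 1.3, and 2.16, 1.43 and 3.19. The count of 0 in the Nampt++ sample of rat 1, of 74940546 in total, allows up to 0.0400 CPM (3 counts, counting error only). All 4 Nampt+ samples were below all 3 controls. The log2 fold change was -1.40 (SE 0.56, edgeR adjusted p = 0.999988), and the exact permutation test gave p = 0.0571. The call rested on single samples: p rose above 0.05 when any of the Nampt+ samples of rats 1 and 3 or any control was left out, with log2 fold changes from -1.74 to -1.15 over the omission of each sample. It was also not called with all 3 groups in one fit (-1.39), without a filter on low values (-1.41) or with the replicate number as a block (-1.81).

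Between statuses Ccl17 changed by -1.49 (SE 1.05), and by -1.91 (SE 0.56) without the Nampt++ sample of rat 1. Against controls the Nampt++ samples gave 0.10 (SE 1.08). Exact permutation p-values were 0.229 and 0.943 with all samples. The summed FPKM of 8 dendritic cell markers was 294 to 434 in Nampt++ samples. It was 211 to 612 at Nampt+ and 229 to 457 in the control group. Most of that sum was Ccr7 and Cd83. The scarcer Batf3, Flt3 and Siglech (at most 3.88 FPKM) were lower at Nampt+ in rats 2 to 4 and higher in rat 1. Batf3 and Siglech each had a sample at 0. Ccl17 had this pattern within rats too, whereas Ccr7, Cd83 and Clec9a did not. Xcr1 and Zbtb46 of that list are not given. Without the Nampt++ sample of rat 1, Batf3 was called higher at Nampt++ than in controls (1 of 5 tested, 0.767% of genes called). No dendritic cell marker was called between statuses. The part of dendritic cells in the result was not tested.

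**Figure D2:**
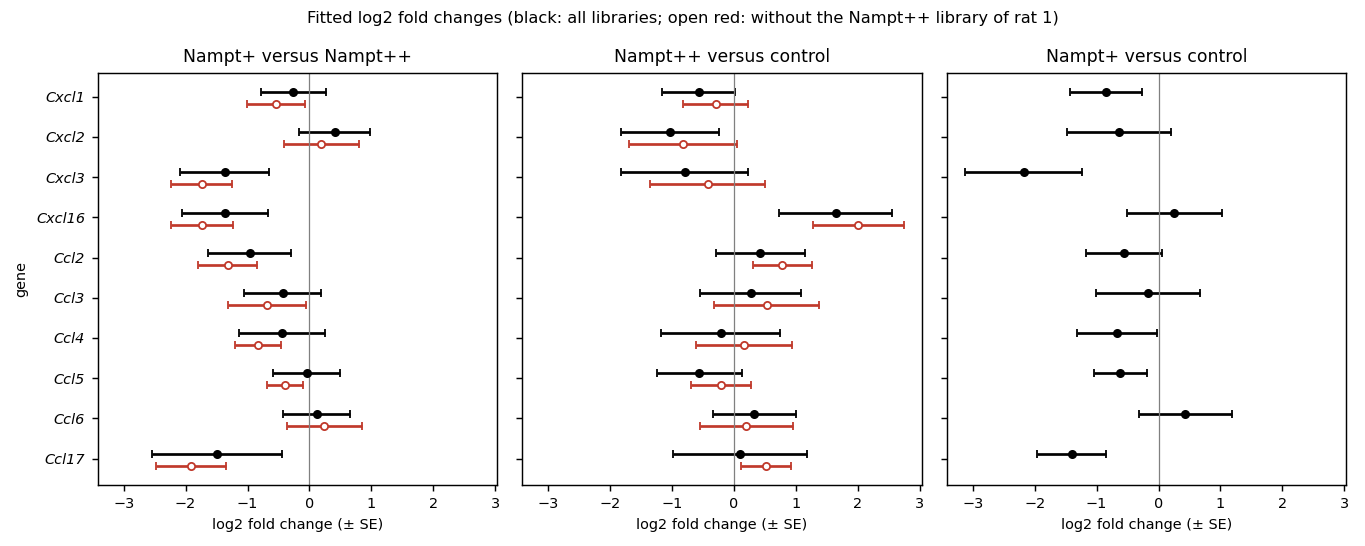
Fitted log2 fold change ± SE of each ligand in the 3 comparisons (edgeR), with all libraries in black and, in open red, without the Nampt++ library of rat 1 where that library takes part. Without it, Cxcl3, Cxcl16, Ccl2 and Ccl17 lay between -1.91 and -1.32 in Nampt+ against Nampt++, with SEs of 0.48 to 0.56.

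Since each CIA rat was sampled at both statuses, the direction could be read within rats. At Nampt+ status, 1 of 10 ligands was lower than at Nampt++ in rat 1, 7 in rat 2, 9 in rat 3 and 7 in rat 4. Cxcl3, Cxcl16, Ccl2, Ccl4 and Ccl17 were lower in rats 2, 3 and 4 and higher in rat 1. Over rats 2 to 4 the mean difference in log2(FPKM + 1) was -2.12 ± 0.39 for Cxcl3, -2.01 ± 0.46 for Ccl2, -1.69 ± 0.93 for Cxcl16, -1.11 ± 0.49 for Ccl17 and -0.81 ± 0.43 for Ccl4 (SD, n = 3). In rat 1 the same ligands differed by 2.0, 2.45, 0.20, 0.42 and 2.62. Over all 4 rats the exact sign-flip permutation test gave p = 0.25 for Cxcl16 and Ccl17, 0.375 for Cxcl3 and 0.5 for Ccl2, a design of 4 rats that cannot reach 0.05.

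The Nampt++ sample of rat 1 differed from other samples in its ligands as well as in its neutrophil marker sum. Its Cxcl3, Ccl2, Ccl4, Ccl5 and Ccl17 were the lowest of the 11 samples, while its Ccl6 was the third highest. The neutrophil sum ran from 3026 to 40115 FPKM over Nampt++ samples, from 3791 to 15471 over Nampt+ samples and from 2204 to 14035 over controls. Of 8 neutrophil markers tested, 0 were called in any comparison, and no listed marker was at 0 throughout. The monocyte sum was 5722 to 12887, 5443 to 13862 and 4228 to 10742 FPKM in the same order. Most of that sum was Lyz2 (3978 to 13492 FPKM). The monocyte markers Cd14 and Cd68 were lower at Nampt+ in rats 2 to 4 and higher in rat 1, as Cxcl3 and Ccl2 were. Lyz2 and Fcgr1a instead were lower at Nampt+ in rats 1 and 3 and higher in rats 2 and 4. Without the Nampt++ sample of rat 1, the monocyte gene Cd14 was called lower at Nampt+ beside the 4 ligands. It was among 2 of 8 monocyte markers called lower in that fit, where 0.92% of genes were called. The part of cell composition in these results was not tested.

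**Figure D3:**
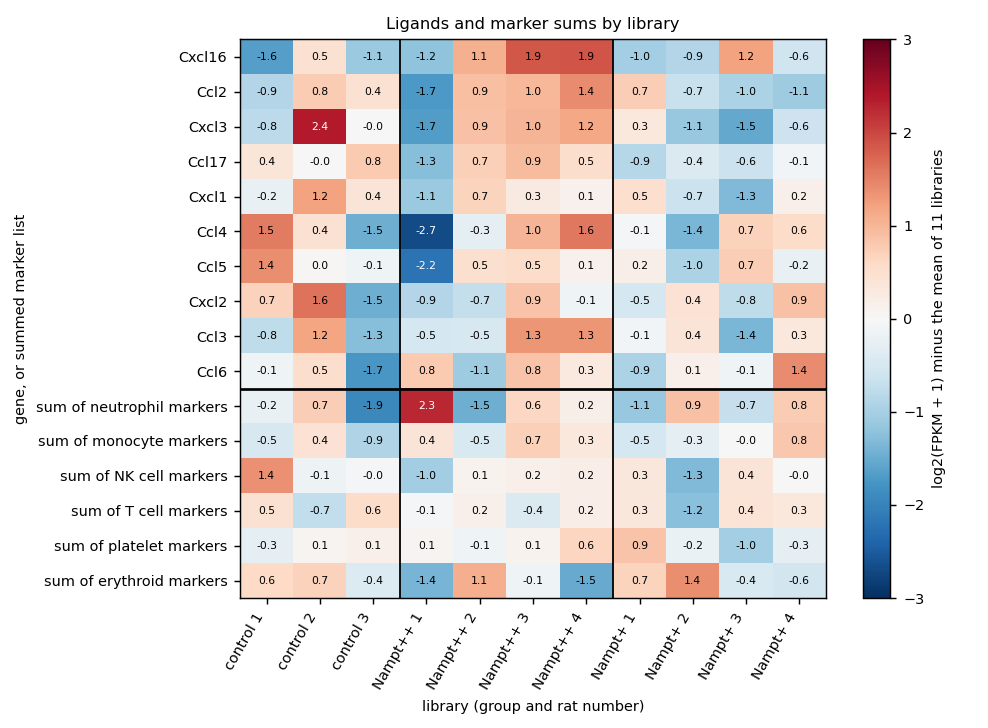
Level of each ligand (above the line) and of 6 summed marker lists (below it) in 11 libraries, as the log2(FPKM + 1) minus its mean over the libraries, in color and number. The Nampt++ library of rat 1 had the highest neutrophil sum (40115 FPKM) and the lowest Cxcl3, Ccl2, Ccl4, Ccl5 and Ccl17, whereas Cxcl16, Ccl2 and Cxcl3 were above their means in the Nampt++ libraries of rats 2 to 4.

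Some ligands ran together over the 11 samples. As a description over samples that share their libraries and cell mixtures, Pearson's r of log2(FPKM + 1) was 0.89 between Cxcl1 and Cxcl3, 0.88 between Cxcl3 and Ccl2, and 0.83 between Ccl4 and Ccl5. Without the Nampt++ sample of rat 1 these were 0.87, 0.85 and 0.67 over 10 samples. Cxcl2 and Ccl6 had 0.67, and 0.82 without it. Cxcl1 and Cxcl2, the neighbours whose promoters are shown above, had 0.35, and Cxcl2 had 0.70 with Ccl3.

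Each ligand with a mean of at least 10 FPKM was also set beside 4921 other genes of that level. Ccl5 was most like Nkg7 (r = 0.98), Gzmk (0.98) and Gzmm (0.96), which encode a granule protein and granule enzymes of NK and cytotoxic T cells, and without the Nampt++ sample of rat 1 its r with Nkg7 was 0.97. Ccl6 was most like Anpep (0.97), Ets2 (0.96) and Jaml (0.96), of which Anpep encodes a myeloid surface peptidase and Jaml a leukocyte adhesion molecule. The 3 genes nearest to Cxcl16 were Fam129b (0.92), the nuclear lamina gene Lmna (0.91) and Tlr7 (0.88), which encodes an endosomal RNA sensor. Ccl3 was most like the neutrophil granule gene Lcn2 (0.88), its overlapping neighbour AC114233 (0.88) and the adhesion gene Icam1 (0.88).

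The remaining ligands had nearest genes with r from 0.76 to 0.90. Among the genes nearest to Cxcl3 were Thbs1 (0.78) and the complement regulator Cd55 (0.72), and Ccl2 was nearest to Rbpms (0.84), Cd55 (0.82) and Rasl10a (0.81). Ccl4 was nearest to RF00004 (0.89), LOC100360791 (0.84) and the granzyme gene Gzmbl2 (0.83). Cxcl2 was nearest to AC128792 (0.90), LOC100360087 (0.85) and AC120071 (0.83), and Cxcl1 to Triap1 (0.76), LOC100362384 (0.71) and the platelet collagen receptor gene Gp6 (0.68).

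**Figure D4:**
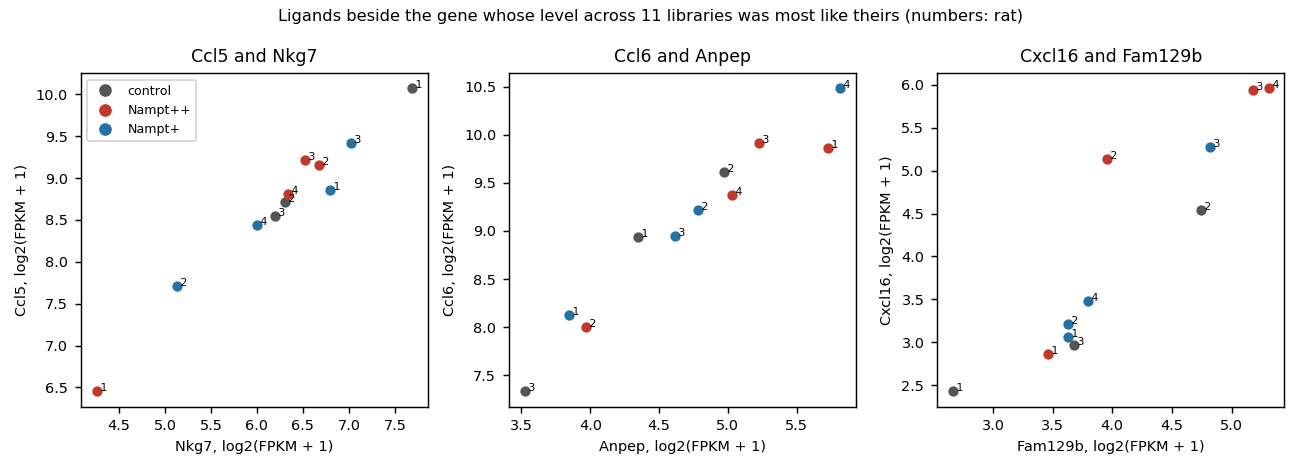
Level of Ccl5, Ccl6 and Cxcl16 (vertical) against that of the gene most like each (horizontal), both as log2(FPKM + 1), in 11 libraries colored by group and numbered by rat. Ccl5 followed Nkg7 (r = 0.98) and Ccl6 followed Anpep (0.97) across all 3 groups, while Cxcl16 followed Fam129b (0.92) with the Nampt++ libraries of rats 3 and 4 at the top.

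Other genes of the chemokine system mostly did not pass. Of 26 other chemokine ligands, all in the table, 8 were at 0 in every sample and 9 had enough expression to be tested between statuses. Ppbp, which encodes a platelet CXC chemokine, was called lower in Nampt++ samples than in controls (-1.09, SE 0.40), and no other was called in any comparison. The platelet ligand Pf4 was the most abundant of them at 1484 to 14645 FPKM, followed by Cxcl10, Ppbp and Ccl9. Without the Nampt++ sample of rat 1, Ppbp was no longer called. Ccl7 and Ccl9 were then called lower at Nampt+ (0.92% of genes called), and Ccl9 higher at Nampt++ than in controls (0.767%). The median log2 fold change of these ligands between statuses was -0.67, against -0.00021 over all genes, and -0.17 against 0.0143 without the Nampt++ sample of rat 1.

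Of 22 chemokine receptors 20 were in the table and 14 were tested, with 0 called in each comparison. Cxcr4, the receptor that holds leukocytes in the marrow, was the most abundant at 568 ± 143 FPKM in Nampt++ samples, 639.7 ± 128 in Nampt+ samples (SD, n = 4 each) and 720.4 ± 167 in controls (SD, n = 3). Ccr7, Ccrl2 and Cxcr2 came next. Cxcr2, the receptor of Cxcl1, Cxcl2 and Cxcl3 on neutrophils, had 360.0 FPKM in the Nampt++ sample of rat 1 and 17.9 to 137 in the others. Cxcr6, the receptor of Cxcl16, was called higher in Nampt++ samples than in controls without the Nampt++ sample of rat 1, as Cxcl16 was, and not with all samples.

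Among 18 NF-kappa B inflammatory targets and feedback genes, all tested, Il1a was called lower at Nampt+ than at Nampt++ (-1.22, SE 0.24). This held with and without the Nampt++ sample of rat 1, by unadjusted p only. Il1a encodes an alarmin cytokine, and its FPKM was 6.14, 8.69, 8.06 and 11.3 at Nampt++ against 3.15, 2.42, 4.99 and 3.48 at Nampt+. It fell in all 4 rats, unlike any of the 10 ligands. The most abundant genes of the list were Il1b, Nfkbia, Sod2 and Zfp36, and their changes between statuses were -0.38, -0.43, -0.58 and -0.26 with none past the test. The median of the list was -0.33 between statuses and 0.35 for Nampt++ against controls, and -0.28 and 0.32 without the Nampt++ sample of rat 1.

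With all samples, calls among marker lists of blood cells fell in the basophil and mast cell list and the NK cell list only. Of 5 basophil and mast cell genes tested between statuses, 3 (Mcpt8l2, Mcpt8l3 and Ms4a2) were called higher at Nampt+, against 0.642% of genes. All 3 were highest in the Nampt+ sample of rat 4 (27.3, 24.1 and 5.12 FPKM). Mcpt8l2 was also called lower at Nampt++ than in controls (1 of 4 tested, 0.686% of genes). Both calls of Mcpt8l2 were lost without the Nampt++ sample of rat 1. The NK gene Gzma was called lower at Nampt+ than in controls (1 of 8 tested, 0.497% of genes). No marker of neutrophils, monocytes, T cells, B cells, platelets, dendritic cells or erythroid cells was called in a comparison of all samples. The basophil and mast cell sum was 9.79 to 20.5 FPKM at Nampt++, 11.6 to 72.9 at Nampt+ and 12.0 to 39.9 in the control group.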

How the data were processed

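WBC RNA of 11 samples was compared as 4 Nampt++, 4 Nampt+ and 3 control samples. The extraction text in the labels speaks of retinas, in conflict with the sample sources, and WBCs were taken as these say. The deposited counts are whole numbers of reads per gene without normalization, and the authors' FPKM values scale them by gene length and sample total. The submitters' processing notes name cutadapt 1.9, HISAT2 2.0.4 and StringTie 1.3.4. The genome build, the program behind the counts and its use of strand are not given in the sources used here. The libraries kept strand by a U-labelled second strand.

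Counts were tested with edgeR 4.0.16 (quasi-likelihood, TMM) in R 4.3.3, 2 groups at a time, restricted to genes whose FPKM averaged 1 or more in the samples compared. Benjamini-Hochberg adjustment was over all genes tested, and a ligand's SE was derived from its fold change and F statistic. For single ligands, log2(FPKM + 1) was also permuted exactly (two-sided), in 30 tests between groups and 10 within rats with raw p (SciPy 1.17.1). Alternatives were DESeq2 1.42.0, limma 3.58.1, other scalings and filters, leaving out samples, and the rat as a replicate block. Scripts were tested on simulated data.

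The ligands and gene lists were chosen with earlier results of these data known. Named were all 10 ligands, Nampt, the most abundant genes of each list (up to 4), any called gene of the ligand, receptor and NF-kappa B lists, and the 3 genes most like each ligand with a mean of at least 10 FPKM, while marker lists are given mainly as sums. One gene that this rule names is not reported here. Other genes named as called were chosen after their values were seen. Same-numbered Nampt++ and Nampt+ samples come from the same rat per the sample descriptions, and across 11219 genes their departures from the mean of each group correlated at -0.27, -0.24, 0.24 and 0.08 (rat 1 through rat 4). The controls share only numbers with CIA rats. Counting error is small at this depth, except for Ccl17, and p-values against controls measure the spread between rats. Between statuses, the main fit and the permutation between groups treated both samples of a rat as independent. Only the fits with the rat as a block and the sign-flip test used the pairing. Promoters came from RefSeq (GRCr8), and no position in the deposited table was converted.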

Additional observations from a re-analysis of the deposited data

Results flagged for a closer look

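In 40 checks of a ligand in a group of 4 samples, on the FPKM and the log2(FPKM + 1) scale, 5 held a sample far from the others. Chance would mark about 1 in 20 independent checks. These checks were not independent, since both scales use the same values and the ligands share samples, so the number flagged cannot be set against that rate. Of the 5 flagged, 3 concern the Nampt++ sample of rat 1, which also had the highest neutrophil marker sum. On the log2(FPKM + 1) scale its Cxcl3 was 1.37 with the next sample at 3.93, its Ccl2 was 4.0 with the next at 6.63, and its Ccl5 was 6.45 with the next at 8.81. The other 2 were in Nampt+ samples on the FPKM scale, namely Cxcl16 in rat 3 at 37.7 with the next at 10.1, and Ccl2 in rat 1 at 86.1 with the next at 32.2. Cxcl16 in rat 3 was thus the highest at Nampt+ and among the highest at Nampt++ (60.3 FPKM). Ccl2 in rat 1 was lowest of 4 at Nampt++ and highest of 4 at Nampt+.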

How the results depend on the processing

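Of 887 values recomputed under alternatives, 737 kept their direction and their side of the threshold, 93 changed sign, and none of the values that changed sign was past the test in both settings. The number of ligands called between Nampt+ and Nampt++ was 0, and became 2 with DESeq2, 1 with the rat as a replicate block and 2 with limma and the replicate block. For Nampt++ against controls it was 0, and became 1 with DESeq2 and 1 with limma. For Nampt+ against controls it was 1, and became 2 with upper quartile scaling, 2 without haemoglobin genes, 2 with limma, 0 with a mean FPKM of at least 10, which removes Ccl17 from the test, and 0 with the replicate number as a block. Leaving out samples gave 0 to 4, 0 to 2 and 0 to 1 in these comparisons. Between statuses, Ccl4 changed sign with limma (0.0512), limma and block (0.0512) and block (0.0189), Ccl5 with limma (0.20), limma and block (0.20), block (0.22) and the filter at 10 FPKM (0.0028), and Ccl6 with limma (-0.0975), limma and block (-0.0975) and block (-0.0128). Against controls, Nampt++ samples changed sign for Ccl2 with the block (-0.0229) and for Ccl17 with limma (-0.16) and the block (-0.64), and Nampt+ samples for Ccl3 with limma (0.0894) and the block (0.0624). The controls share only numbers with CIA rats. Where leaving out samples changed a sign, the values ranged as follows. Fitted changes of Nampt+ against Nampt++ ran from -1.24 to 0.24 for Ccl3, -0.41 to 0.27 for Ccl5, -0.35 to 0.54 for Ccl6, -0.79 to 0.10 for Cxcl1 and -0.21 to 1.21 for Cxcl2. Fitted changes of Nampt++ against controls ran from -0.24 to 0.52 for Ccl17, -0.19 to 1.74 for Ccl3, -0.72 to 0.49 for Ccl4, -0.91 to 0.0575 for Ccl5, -0.14 to 1.13 for Ccl6, -0.94 to 0.23 for Cxcl1, -1.57 to 0.0207 for Cxcl2 and -1.29 to 1.35 for Cxcl3. Fitted changes of Nampt+ against controls ran from -1.02 to 0.11 for Ccl2, -0.77 to 1.31 for Ccl3, -1.17 to 0.0286 for Ccl4, -0.0385 to 1.24 for Ccl6, -0.37 to 1.65 for Cxcl16 and -1.15 to 0.43 for Cxcl2. Differences in mean log2(FPKM + 1) between statuses ran from -0.81 to 0.61 for Ccl4, -0.45 to 0.50 for Ccl5, -0.53 to 0.26 for Ccl6, -0.69 to 0.0163 for Cxcl1 and -0.0665 to 0.58 for Cxcl2. Those of Nampt++ against controls ran from -0.40 to 0.34 for Ccl17, -0.20 to 1.00 for Ccl2, -1.09 to 0.59 for Ccl4, -1.38 to 0.18 for Cxcl2 and -0.85 to 0.73 for Cxcl3. Those of Nampt+ against controls ran from -0.41 to 0.82 for Ccl3, -1.04 to 0.46 for Ccl4, -0.0817 to 1.06 for Ccl6, -0.0607 to 1.06 for Cxcl16 and -1.15 to 0.41 for Cxcl2. Mean differences within rats ran from -1.09 to 0.10 for Ccl3, -0.81 to 0.43 for Ccl4, -0.53 to 0.75 for Ccl5, -0.53 to 0.45 for Ccl6, -0.97 to 0.11 for Cxcl1 and -0.0832 to 0.84 for Cxcl2. The cause of these changes was not tested. The number of rats limits these comparisons, and the low counts of Ccl17 limit its values.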
